A study of Mus musculus with 6 samples.

Results

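The genes of ribosome biogenesis and RNA polymerase I (Pol I) were examined in hepatocytes from undamaged livers (0 h) and from livers at 48 h after partial hepatectomy (PHx), an operation that takes out most of the liver. The group is a list of 42 gene names of this pathway, and all 42 were found among the 55450 genes of the count files by their GENCODE M21 names and versioned Ensembl identifiers. Bulk RNA-Seq was done on 6 libraries, 3 at 0 h and 3 at 48 h, each from a separate hepatocyte preparation of male C57BL/6 mice (C57BL/6J in the study's methods) on a normal diet. The labels give their age at surgery as 10 to 12 weeks, and the study's methods give a slightly younger age. The mice of the 0 h group had no sham operation, so the loss of liver mass and the operation itself cannot be told apart. In such bulk samples, more cells of a type and more RNA per cell cannot be told apart either.

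Ribosomes are built in the nucleolus. Pol I transcribes the long precursor of the ribosomal RNAs, small nucleolar ribonucleoproteins (snoRNPs) guide its chemical modification and cleavage, and a large set of processing factors trims it while ribosomal proteins join the small and the large subunit. Cells that grow before they divide make more ribosomes, and in the regenerating liver hepatocytes enlarge and divide. The members fall into 6 roles here: Pol I transcription (8 genes), nucleolar proteins with several tasks (7), box C/D and U3 snoRNPs (4), box H/ACA snoRNPs (4), small subunit processing (11) and large subunit processing (8).

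The libraries held 31419443 to 36346220 counts in genes, and a member had between 54 and 3933 counts in a library, so that all 42 passed the minimum of 10 counts in 3 libraries. Levels are given in CPM, counts scaled to a common library total after trimmed-mean (TMM) scaling, and before that scaling a count of 3 corresponded to 0.0825 to 0.0955 CPM. Fold changes are 48 h over 0 h on the log2 scale with their standard error (SE), and a gene was called at an adjusted p under 0.05 in the quasi-likelihood test of edgeR, with p-values adjusted by Benjamini and Hochberg's method over 17037 genes. Libraries of the same time point correlated with r = 0.984 to 0.989 across genes, and those of different time points with r = 0.918 to 0.937.

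Most of the 42 members were at a higher level at 48 h. Of the 42 members, 28 rose, 0 fell and 14 did not pass the test, where 21.4% of all genes tested were called higher and 19.3% lower. The summed level of the members was 707.0, 678.1 and 688.3 CPM in the 3 libraries at 0 h and 974.3, 976.7 and 990.0 CPM in those at 48 h, without overlap. The members' share of the raw gene counts, a scaling by library size alone, was 0.0645% ± 0.0016 at 0 h. At 48 h it was 0.105% ± 0.0054 (SD, n = 3 at each time point). With library size alone, the median log2 fold change of all genes tested was itself 0.20. The typical change under TMM was moderate, with a median log2 fold change of 0.45 over the members (a fold of 1.36, quartiles 0.31 and 0.70). Over all genes tested, the median under TMM was -0.0033. A positive log2 fold change was found in 40 of the 42 members and in 49.9% of all genes tested. In 36 members the lowest of the 3 libraries at 48 h was higher than the highest at 0 h, which held for 27.8% of all genes tested, and the 6 members whose time points overlapped were Polr1b, Polr1d, Taf1d, Nop10, Heatr1 and Ddx10. Only 5 members, Nop58, Gar1, Nhp2, Nop56 and Rrp1b, were called higher with a log2 fold change of at least 1, as were 9.69% of all genes tested. The 5 thus made up a share of the 42 close to that background, whereas the 28 called higher at any size made up a share well above theirs.

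**Figure D1:**
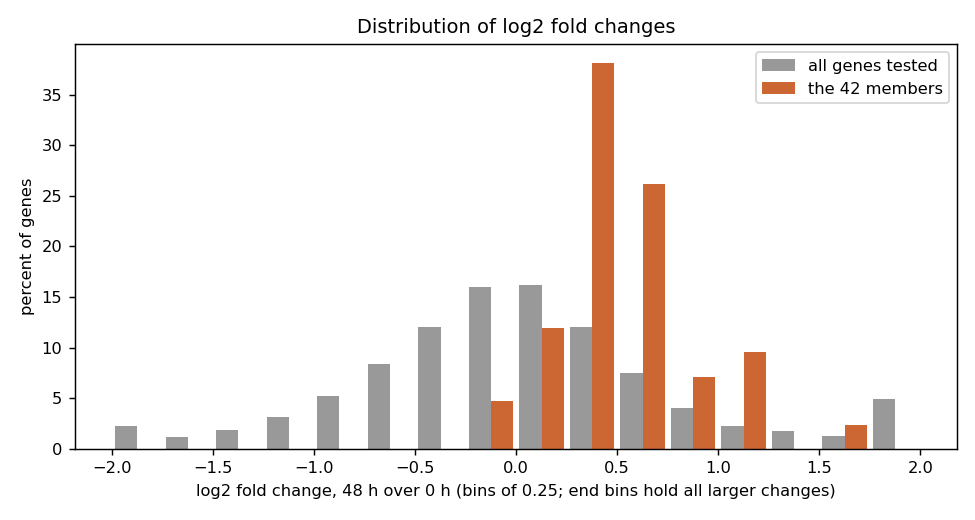
Share of genes (percent, y axis) by log2 fold change from 0 h to 48 h (x axis, bins of 0.25, with larger changes in the end bins) for all 17037 genes tested (grey) and the 42 members (orange). The grey bars are centered near 0, while the orange bars are centered near the members' median of 0.45 and only 2 members, Nop10 and Ddx10, lie below 0.

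The size of these changes depended on the scaling between libraries. With library size alone, without TMM, the median log2 fold change of all genes tested shifted to 0.20 and that of the members to 0.65, 0.45 above it, and 71.6% of all calls were then increases, compared with 52.5% under TMM. All members but Polr1b, Nop10 and Ddx10 were then called higher, 39 in all. With upper-quartile scaling the members' median was 0.37, 44.5% of all calls were increases and 22 members were called higher. The call of 18 members held in the fit with TMM and in all 15 alternatives that refitted the members, which changed the test, the scaling, the filter or the design or left out 1 library. These were Polr1a, Polr1c, Rrn3, Ncl, Npm1, Nolc1, Tcof1, Ddx21, Nop56, Nop58, Gar1, Nhp2, Rrp12, Bysl, Tsr1, Nob1, Nop2 and Rrp1b.

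**Figure D2:**
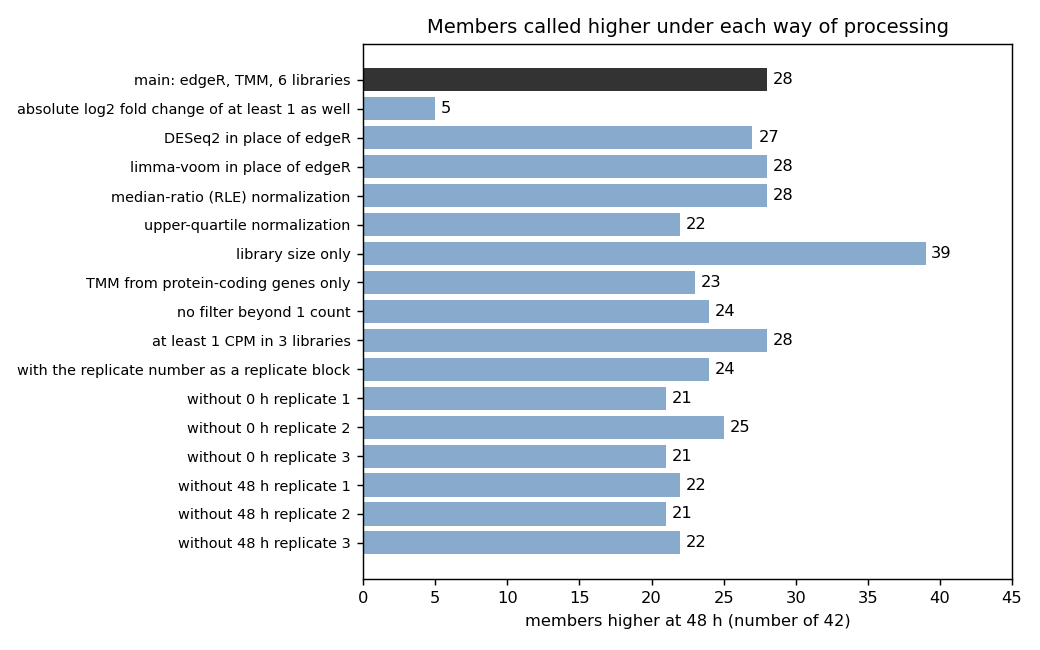
Number of members called higher at 48 h (x axis, of 42) under each way of processing (y axis), with the TMM fit of 6 libraries in black. The number was 28 in that fit, 21 to 25 with 1 library left out, 39 with library size alone, and 5 when a log2 fold change of at least 1 was also asked for.

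Promoter sequence was compared as a feature that the choice of members did not use. RefSeq start sites (GRCm38.p6) were matched for 37 of the 42 members, and windows from 250 bases before to 50 bases after each start were searched on both strands. The E-box CACGTG, the letters bound by Myc among other factors, was present in 7 members (18.9%), compared with 8.09% of the 27025 genes in the table. The letters GGGCGG of the GC box were present in 27 members (73.0%) and in 38.2% of all genes, and CCGGAAG, a core of ETS family sites, in 12 members (32.4%) and in 9.93% of all genes. TATAAA was present in 2 members (5.41%) and in 15.7% of all genes. These shares are a description, and no match was tested as a binding site. All 42 members passed the count filter, while the 27025 genes include genes that did not. The differences may therefore not be particular to this pathway. The 120 bases before the RefSeq start are printed for 5 members, 5′ to 3′ on the gene's strand, with matches to these motifs in capitals: Nop56 (chr2:130274292-130274411, plus strand) and Gar1 (chr3:129831397-129831516, minus strand), among the members with the largest increases, Nop10 (chr2:112261806-112261925, plus strand), the member with the lowest fold change, and Nop2 (chr6:125131763-125131882, plus strand) and Rrn3 (chr16:13780579-13780698, plus strand), the members with an E-box before the start site.
Nop56: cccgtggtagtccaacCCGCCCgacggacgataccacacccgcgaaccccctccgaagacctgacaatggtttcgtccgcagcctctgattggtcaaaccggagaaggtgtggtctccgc
Gar1: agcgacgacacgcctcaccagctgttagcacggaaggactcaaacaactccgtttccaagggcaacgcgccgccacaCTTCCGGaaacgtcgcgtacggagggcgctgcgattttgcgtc
Nop10: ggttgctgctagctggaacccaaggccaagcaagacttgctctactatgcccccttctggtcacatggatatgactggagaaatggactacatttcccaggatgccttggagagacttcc
Nop2: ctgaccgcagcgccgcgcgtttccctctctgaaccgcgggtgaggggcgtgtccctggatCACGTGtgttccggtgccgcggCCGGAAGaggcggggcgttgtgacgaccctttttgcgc
Rrn3: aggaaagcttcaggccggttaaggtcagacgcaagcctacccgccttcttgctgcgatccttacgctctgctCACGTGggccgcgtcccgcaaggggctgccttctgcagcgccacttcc
Nop56 held a GC box, Gar1 and Nop2 an ETS core, and Nop2 and Rrn3 an E-box in this stretch, while Nop10 held none of these letters there. Other members differed from this pattern. Bysl, Ddx21, Nob1, Polr1a and Tsr1, all called higher, also held none of them in that stretch. Ddx10 and Polr1b, not called, held GC box letters there. Whether these letters go with the change was not tested.

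Among the 8 genes of Pol I transcription, 4 rose, 0 fell and 4 did not pass the test, with a median log2 fold change of 0.34. Rrn3, the initiation factor that brings Pol I to the ribosomal promoter, was at 27.3, 33.8 and 28.9 CPM at 0 h and at 40.2, 47.7 and 48.5 CPM at 48 h. The 48 h values were thus separated from the 0 h values, and the log2 fold change of 0.60 (SE 0.12, adjusted p = 0.0026) was the largest of this role. Polr1a, the largest catalytic subunit, was at 35.9, 34.7 and 32.4 CPM at 0 h and at 46.1, 46.8 and 45.95 CPM at 48 h, a log2 fold change of 0.43 (SE 0.094, adjusted p = 0.0044). Polr1c, a subunit shared with RNA polymerase III, rose from 5.75, 5.25 and 5.72 CPM to 8.37, 7.38 and 9.37 CPM, a log2 fold change of 0.59 (SE 0.15, adjusted p = 0.010). Polr1e, a subunit found in Pol I alone, rose from 3.13, 3.35 and 2.98 CPM to 4.48, 4.22 and 4.88 CPM, with a log2 fold change of 0.52 (SE 0.17, adjusted p = 0.031). For each of these 3 subunits the time points did not overlap. The call of Polr1e was the least stable of this role: it was kept in 6 of the 15 alternatives and was lost with upper-quartile scaling, with TMM on protein-coding genes, without a filter beyond 1 count, under the replicate block and without any single library other than 0 h replicate 2, with an adjusted p of up to 0.098.

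The other 4 genes, Polr1b, Polr1d, Taf1d and Ubtf, did not pass the test. Polr1b, which forms the active site with Polr1a, was at 13.0, 14.7 and 14.1 CPM at 0 h and at 14.1, 13.8 and 14.5 CPM at 48 h. The values of the time points were interleaved, with a log2 fold change of 0.020 (SE 0.11, adjusted p = 0.91) whose sign turned under upper-quartile scaling, under TMM on protein-coding genes and without 0 h replicate 1 (-0.066, -0.034 and -0.034). Polr1d, also shared with RNA polymerase III, was at 11.3, 9.73 and 12.6 CPM at 0 h and at 12.1, 13.3 and 13.4 CPM at 48 h (log2 fold change 0.21, SE 0.13, adjusted p = 0.24). Taf1d, a subunit of the promoter selectivity factor of Pol I, was at 31.8, 38.5 and 35.1 CPM at 0 h and at 36.5, 39.4 and 39.5 CPM at 48 h (log2 fold change 0.13, SE 0.11, adjusted p = 0.36). For both genes the highest library at 0 h exceeded the lowest at 48 h. Single libraries moved these values: the log2 fold change of Polr1d was 0.11 (adjusted p = 0.52) without 0 h replicate 2, and that of Taf1d 0.054 (adjusted p = 0.75) without 0 h replicate 1. Ubtf, the upstream binding factor that keeps ribosomal DNA open, was at 49.0, 44.95 and 40.7 CPM at 0 h and at 58.1, 51.3 and 50.7 CPM at 48 h. Its time points did not overlap, but the log2 fold change of 0.25 (SE 0.11, adjusted p = 0.092) did not pass the test. Reads of Taf1d carried a further limit, since 10.1% of its exon bases are shared with other annotated genes of the same strand, among them snoRNA genes.

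**Figure D3:**
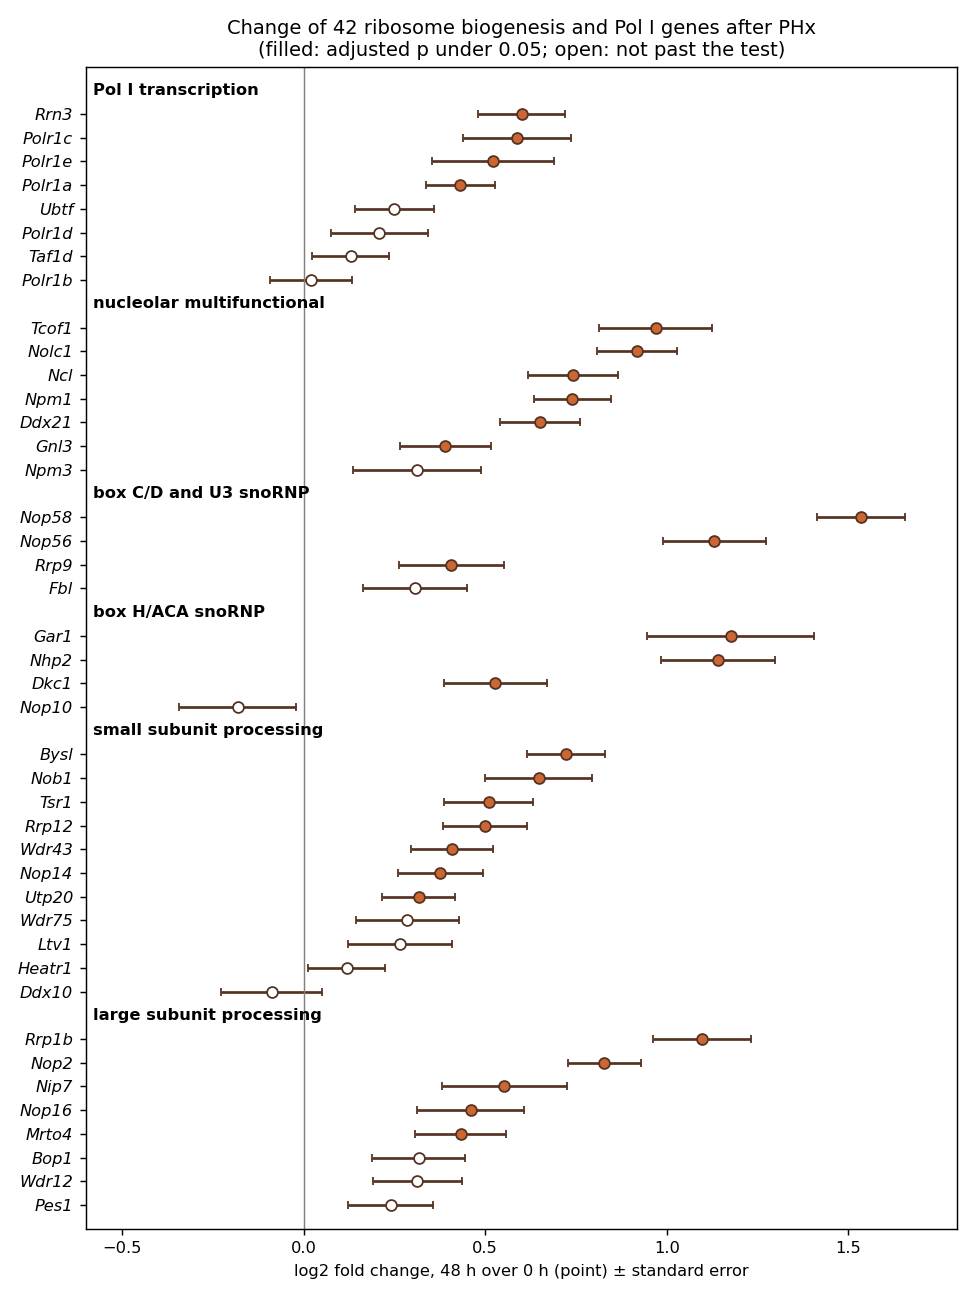
Log2 fold change from 0 h to 48 h (x axis, point) with its standard error (bar) for each of the 42 members (y axis), grouped by role, where filled points have an adjusted p under 0.05. Filled points are found in every role, Nop58 lies farthest to the right at 1.53, and Nop10 farthest to the left at -0.18.

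Of the 7 nucleolar proteins with several tasks, 6 rose, 0 fell and 1 did not pass the test, and the median log2 fold change was 0.74. Tcof1, which encodes treacle, a nucleolar protein that supports Pol I transcription and rRNA modification, was at 11.3, 8.15 and 10.1 CPM at 0 h and at 21.2, 16.3 and 20.4 CPM at 48 h. Every library at 48 h exceeded every library at 0 h, and the log2 fold change was 0.97 (SE 0.16, adjusted p = 7.1e-04). Nolc1, a chaperone of snoRNPs, rose by a log2 fold change of 0.92 (SE 0.11, adjusted p = 1.1e-04), from 14.3 ± 1.2 to 26.96 ± 0.49 CPM (SD, n = 3). Ncl, which encodes nucleolin, was the most abundant member in CPM, with 67.9, 54.2 and 64.9 CPM at 0 h and 92.9, 110.0 and 109.9 CPM at 48 h. Its log2 fold change of 0.74 (SE 0.12, adjusted p = 8.7e-04) was close to that of Npm1, nucleophosmin, at 0.74 (SE 0.11, adjusted p = 3.5e-04), and the RNA helicase Ddx21 rose by 0.65 (SE 0.11, adjusted p = 9.7e-04). Gnl3, which encodes nucleostemin, rose less, by 0.39 (SE 0.13, adjusted p = 0.031). The call of Gnl3 was kept in 8 of the 15 alternatives and was lost with upper-quartile scaling, with TMM on protein-coding genes, under the replicate block and without 0 h replicate 1 or 3 or 48 h replicate 1 or 3, with an adjusted p of up to 0.12. Npm3, a smaller relative of Npm1, was at 3.34, 3.45 and 3.55 CPM at 0 h and at 4.96, 3.83 and 4.06 CPM at 48 h. These did not overlap, 48 h replicate 1 was well above the other two, and the log2 fold change of 0.31 (SE 0.18, adjusted p = 0.19) did not pass the test. Without that library it was 0.19 (adjusted p = 0.49).

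The 4 largest increases of the whole group were those of the snoRNP proteins Nop58, Gar1, Nhp2 and Nop56. Box C/D snoRNPs direct the methylation of ribose in ribosomal RNA, and Nop56 and Nop58 form the scaffold on which Fbl, fibrillarin, acts as the methyltransferase. Nop58 (chromosome 1, 59684971 to 59719044, GRCm38) was at 8.99, 10.9 and 9.28 CPM at 0 h and at 30.0, 28.4 and 26.3 CPM at 48 h, with no overlap. This fold of 2.90 (log2 fold change 1.53, SE 0.12, adjusted p = 6.0e-06) was the largest of the 42 members. Nop56 (chromosome 2, 130274430 to 130279313), whose promoter is printed above, was at 11.2, 16.3 and 13.1 CPM at 0 h and at 30.8, 30.1 and 28.1 CPM at 48 h. Its log2 fold change was 1.13 (SE 0.14, adjusted p = 1.4e-04), again without overlap. Fbl, the enzyme of the particle, was at 12.8, 9.18 and 10.7 CPM at 0 h and at 12.9, 13.8 and 13.7 CPM at 48 h, and the highest library at 0 h lay just under the lowest at 48 h. The log2 fold change of 0.31 (SE 0.14, adjusted p = 0.11) did not pass the test, and it did without that library, 0 h replicate 1 (0.43, adjusted p = 0.046), and with library size alone (0.51, adjusted p = 0.016). Without 0 h replicate 2, the lowest library, the log2 fold change of Fbl was 0.19 (adjusted p = 0.27). Rrp9, a protein of the U3 snoRNP that acts in the first cleavages of the precursor, rose from 5.17 ± 0.28 to 6.86 ± 0.38 CPM (SD, n = 3; log2 fold change 0.41, SE 0.14, adjusted p = 0.045). That call was kept in 4 of the 15 alternatives: it was lost with DESeq2 (adjusted p = 0.060), with upper-quartile scaling, with TMM on protein-coding genes, without a filter beyond 1 count, under the replicate block and without any single library, with an adjusted p of up to 0.12.

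Box H/ACA snoRNPs turn uridine into pseudouridine, and their core holds the enzyme Dkc1, dyskerin, with Gar1, Nhp2 and Nop10. Nhp2 (chromosome 11, 51619735 to 51623714) was at 8.71, 6.12 and 7.17 CPM at 0 h and at 16.7, 17.5 and 14.3 CPM at 48 h. No library at 0 h came near those at 48 h, and the log2 fold change was 1.14 (SE 0.16, adjusted p = 2.6e-04). Gar1 (chromosome 3, 129824912 to 129831396), the member with the lowest counts at 0 h, was at 2.18, 1.97 and 1.63 CPM there. At 48 h Gar1 was at 5.55, 3.92 and 3.57 CPM. The time points did not overlap, and the log2 fold change was 1.18 (SE 0.23, adjusted p = 0.0024). Without 48 h replicate 1, which stood above the other two, Gar1 was still called, with a log2 fold change of 0.96 (adjusted p = 0.01). Dkc1 was at 7.59, 7.83 and 9.46 CPM at 0 h and at 10.96, 11.9 and 13.0 CPM at 48 h, with no overlap and a log2 fold change of 0.53 (SE 0.14, adjusted p = 0.013). The call of Dkc1 was lost only without 0 h replicate 1 (adjusted p = 0.052). Nop10 (chromosome 2, 112261926 to 112263269), the smallest protein of the core, went the other way in its mean, with 26.8, 16.7 and 22.6 CPM at 0 h and 18.1, 20.98 and 19.1 CPM at 48 h. The 3 libraries at 48 h all lay within the range of those at 0 h, and the log2 fold change of -0.18 (SE 0.16, adjusted p = 0.40) did not pass the test. Without 0 h replicate 2, the lowest of its group, Nop10 was called lower (-0.36, adjusted p = 0.040), and without 0 h replicate 1, the highest, the log2 fold change was -0.026.

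**Figure D4:**
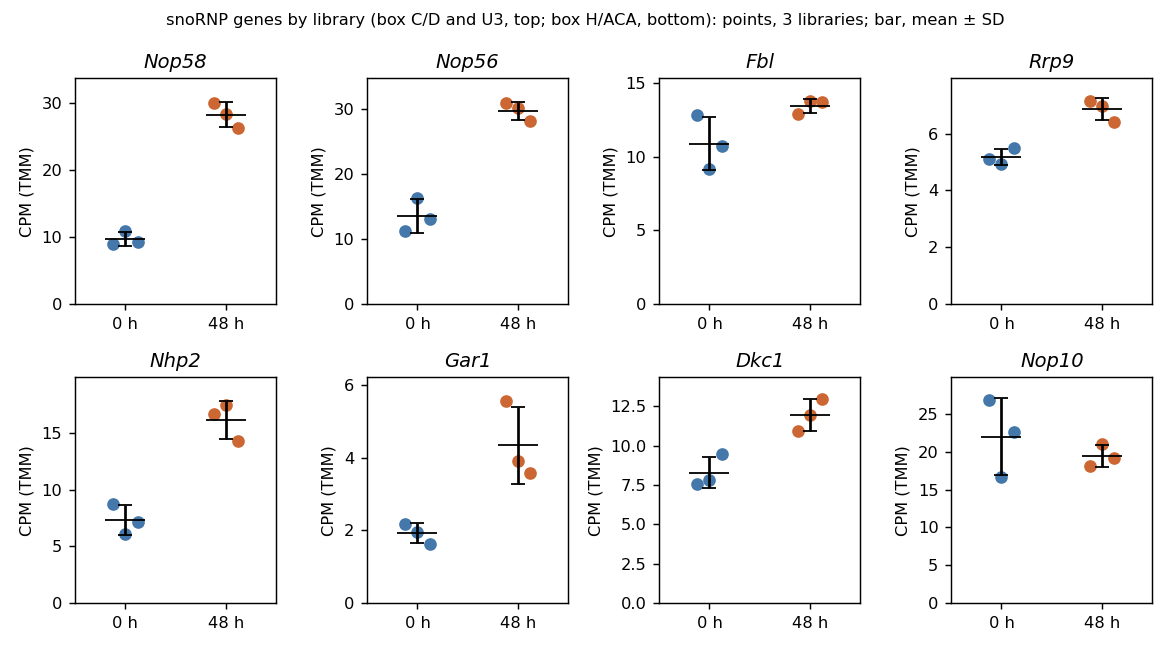
Level (CPM after TMM scaling, y axis from 0) of the 8 snoRNP genes in each library (points) with mean ± SD (bars, n = 3) at 0 h and 48 h (x axis), box C/D and U3 in the top row and box H/ACA in the bottom row. Nop58, Nop56, Nhp2 and Gar1 are more than 2-fold higher at 48 h, while the points of Nop10 overlap between the time points.

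Small subunit processing was the largest role, and of its 11 genes 7 rose, 0 fell and 4 did not pass the test (median log2 fold change 0.38). The largest change was that of Bysl, bystin, a late assembly factor of the small subunit, with 16.5, 14.5 and 16.5 CPM at 0 h and 27.3, 25.1 and 26.1 CPM at 48 h. The libraries of each time point lay close together and did not overlap (log2 fold change 0.72, SE 0.11, adjusted p = 4.5e-04). Nob1, the nuclease of the final cut of the small subunit rRNA, rose by 0.65 (SE 0.15, adjusted p = 0.0054), Tsr1, a GTPase-like maturation factor, by 0.51 (SE 0.12, adjusted p = 0.0075), and Rrp12, which helps to export the subunits from the nucleus, by 0.50 (SE 0.12, adjusted p = 0.0062). The rises of Wdr43 (0.41, adjusted p = 0.016), Nop14 (0.38, adjusted p = 0.026) and Utp20 (0.32, adjusted p = 0.030), components of the small subunit processome that forms on the nascent precursor, were less stable. Their calls were kept in 12, 8 and 7 of the 15 alternatives, with adjusted p-values of up to 0.069, 0.11 and 0.11: that of Wdr43 was lost with upper-quartile scaling and without 0 h replicate 1 or 3. The call of Nop14 was lost with upper-quartile scaling, with TMM on protein-coding genes, without a filter beyond 1 count, and without 0 h replicate 1 or 3 or 48 h replicate 1 or 2. The call of Utp20 was lost with the same scalings and without that filter, under the replicate block, and without 0 h replicate 1 or 3 or 48 h replicate 2 or 3.

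The other 4 genes of this role did not pass the test. Wdr75, also of the processome, was at 10.3, 13.47 and 11.7 CPM at 0 h and at 13.51, 13.48 and 16.25 CPM at 48 h (log2 fold change 0.29, SE 0.14, adjusted p = 0.13). Ltv1, a late assembly factor of the small subunit, was at 8.20, 6.96 and 8.70 CPM at 0 h and at 9.53, 10.3 and 8.82 CPM at 48 h (log2 fold change 0.26, SE 0.14, adjusted p = 0.17). In both genes the time points were only just separated, and the log2 fold change was 0.19 (adjusted p = 0.37) for Wdr75 without 0 h replicate 1 and 0.17 (adjusted p = 0.36) for Ltv1 without 0 h replicate 2. Heatr1, a large scaffold protein of the processome, was at 27.5, 29.5 and 28.0 CPM at 0 h and at 34.0, 28.1 and 30.3 CPM at 48 h (log2 fold change 0.12, SE 0.11, adjusted p = 0.41). Ddx10, an RNA helicase, was at 9.33, 11.4 and 10.3 CPM at 0 h and at 8.70, 9.76 and 10.7 CPM at 48 h. Its time points overlapped and its log2 fold change of -0.088 (SE 0.14, adjusted p = 0.65) turned to 0.12 with library size alone. With 1 library left out, the log2 fold change ranged from 0.040 (without 48 h replicate 1) to 0.18 (without 48 h replicate 2) for Heatr1 and from -0.16 (without 0 h replicate 1) to -0.017 (without 48 h replicate 1) for Ddx10. Strand was not stated for the counting, and 32.3% of the exon bases of Tsr1 and 9.37% of those of Bysl are shared with a gene on the other strand (Srr and Ccnd3).

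For large subunit processing, 5 of 8 genes rose, 0 fell and 3 did not pass the test, with a median log2 fold change of 0.45, and in all 8 the time points were separated. Rrp1b, a nucleolar protein of the early large subunit precursor, was at 7.08, 6.19 and 5.96 CPM at 0 h and at 14.8, 13.7 and 12.7 CPM at 48 h. Each library at 48 h was well above each at 0 h, and the log2 fold change was 1.10 (SE 0.14, adjusted p = 1.3e-04). Nop2, an rRNA methyltransferase whose promoter with its E-box is printed above, rose from 14.96 ± 0.48 to 26.6 ± 0.38 CPM (SD, n = 3), a log2 fold change of 0.83 (SE 0.10, adjusted p = 1.2e-04). Nip7 (0.55, adjusted p = 0.026), Nop16 (0.46, adjusted p = 0.030) and Mrto4 (0.43, adjusted p = 0.019), which act in the maturation of the large subunit, also rose. Their calls were kept in 11, 10 and 13 of the 15 alternatives: that of Nip7 was lost without 0 h replicate 2 or 3 or 48 h replicate 1 or 2, that of Nop16 without any single library other than 0 h replicate 3, and that of Mrto4 without 48 h replicate 2 or 3, with adjusted p-values of up to 0.090, 0.085 and 0.059.

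The 3 members that did not pass form one complex. Pes1, Bop1 and Wdr12 make up PeBoW, which is needed to process the large subunit rRNA. Pes1 was at 24.7, 19.8 and 24.2 CPM at 0 h and at 25.7, 28.5 and 27.02 CPM at 48 h (log2 fold change 0.24, SE 0.12, adjusted p = 0.13). Bop1 was at 24.8, 18.4 and 23.5 CPM at 0 h and at 29.3, 26.3 and 27.5 CPM at 48 h (log2 fold change 0.32, SE 0.13, adjusted p = 0.072). Wdr12 was at 9.60, 10.1 and 9.22 CPM at 0 h and at 12.9, 11.6 and 11.5 CPM at 48 h (log2 fold change 0.31, SE 0.12, adjusted p = 0.066). The time points were separated in each of the 3 genes, so the lack of a call does not show that they stayed at one level. With library size alone all of them were called higher, whereas without 0 h replicate 2 the log2 fold change was 0.14 (adjusted p = 0.29) for Pes1 and 0.19 (adjusted p = 0.16) for Bop1.

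Subunits of one complex were then set side by side as shares of their summed CPM per kilobase of annotated exon, which needs no scaling between libraries. In the box C/D core, the share of Nop58 was 13.3% ± 0.78 at 0 h and 20.0% ± 0.71 at 48 h, that of Fbl 38.3% ± 7.8 and 24.6% ± 1.5, and that of Nop56 48.4% ± 7.1 and 55.4% ± 0.79 (SD, n = 3). These shares were separated between 0 h and 48 h for Nop58 and Fbl, but overlapped for Nop56. In the box H/ACA core, the share of Nop10 was 67.2% ± 2.7 at 0 h and 47.3% ± 2.6 at 48 h, and that of Nhp2 21.8% ± 0.93 and 38.0% ± 2.1 (SD, n = 3), both without overlap. Gar1 made up 3.90% ± 0.89 and 6.85% ± 1.7, without overlap, and Dkc1 7.02% ± 1.5 and 7.86% ± 1.0 (SD, n = 3), which overlapped. The mix of transcripts for these cores was thus not the same at both time points. PeBoW kept nearly the same mix, with Pes1 at 47.7% ± 0.57 and 46.3% ± 2.7, Bop1 at 47.1% ± 1.4 and 48.5% ± 2.4 and Wdr12 at 5.15% ± 0.93 and 5.19% ± 0.30 (SD, n = 3), all overlapping. Among the 5 Pol I subunits of the group, the share of Polr1b was 19.6% ± 1.6 at 0 h and 15.8% ± 0.32 at 48 h and that of Polr1c 20.0% ± 0.50 and 23.8% ± 2.0 (SD, n = 3), without overlap. The shares of Polr1a (23.7% ± 1.7 and 25.3% ± 1.2), Polr1d (30.1% ± 2.9 and 27.6% ± 1.4) and Polr1e (6.63% ± 0.60 and 7.53% ± 0.29) overlapped between 0 h and 48 h (SD, n = 3). No test was run on these shares. With the length of the longest protein-coding transcript in place of all exon bases, a choice made after seeing the data, the order of levels within the box C/D core changed at 0 h but not at 48 h, with Fbl at 52.5% and Nop56 at 41.6% at 0 h and Fbl at 37.5% and Nop56 at 52.6% at 48 h. The order also turned for Pes1 (44.3%) and Bop1 (50.2%) at 0 h. It turned at both time points for Polr1a (17.1% and 18.4%) and Polr1c (19.4% and 23.3%), and was kept in the box H/ACA core. By that length the shares of Nop56 no longer overlapped (33.9%, 49.7% and 41.2% at 0 h, 54.0%, 52.5% and 51.3% at 48 h), and the 48 h share of Nop58 was still above that at 0 h (9.87% and 5.90%). For Nop56, 8.0% of the exon bases are shared with snoRNA genes on the same strand, and reads there may have been set aside as ambiguous, a class of 4.27% to 5.29% of the reads listed for a library.

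**Figure D5:**
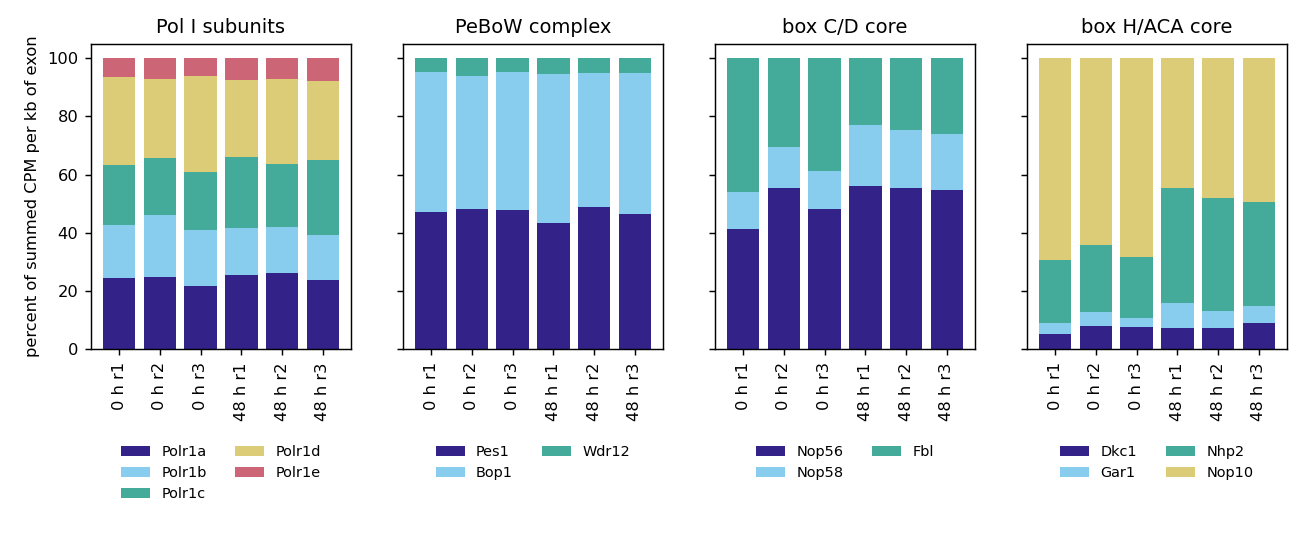
Share of each subunit in the summed CPM per kilobase of exon of its complex (percent, y axis) in each of the 6 libraries (x axis) for the Pol I subunits of the group, PeBoW and the box C/D and box H/ACA cores. Nhp2 widens from 21.8% to 38.0% of the box H/ACA core and Nop10 narrows from 67.2% to 47.3%, while the shares in PeBoW are nearly the same in all libraries.

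Other genes of the pathway were counted in the same way. Among 112 further genes of Pol I transcription, snoRNP assembly and subunit processing, 40 rose, 2 fell and 70 did not pass the test, with a median log2 fold change of 0.28, compared with 21.4% of all genes called higher and a median of -0.0033. Of 12 other genes of Pol I transcription 5 rose and 0 fell, led by Taf1c, a subunit of the promoter selectivity factor (0.98, adjusted p = 0.0053), Polr2l, a subunit shared among the RNA polymerases (0.70, adjusted p = 0.016), and Cd3eap, a Pol I subunit now named Polr1g (0.62, adjusted p = 0.031). Of 10 genes of snoRNP proteins and their assembly 5 rose and 0 fell. The first were Ruvbl2 (0.90, adjusted p = 8.2e-04), Rpap3 (0.74, adjusted p = 0.0099) and Pih1d1 (0.70, adjusted p = 0.0027). These encode parts of the R2TP chaperone that assembles snoRNPs. Ruvbl1, a further part of R2TP in this list, did not pass the test (0.31, adjusted p = 0.11).

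Among 41 other genes of small subunit processing, 13 rose and 1 fell. Mphosph10, of the U3 particle, had the largest increase (1.13, adjusted p = 7.6e-04), followed by Nol10 (0.95, adjusted p = 0.0020) and Nop9 (0.70, adjusted p = 0.0012). The gene that fell was Rcl1, a processome factor, at 131.5, 83.0 and 93.4 CPM at 0 h and 67.6, 68.8 and 62.2 CPM at 48 h (log2 fold change -0.63, SE 0.16, adjusted p = 0.0098). Among 49 other genes of large subunit processing, 17 rose and 1 fell. Eif6, which keeps the large subunit from joining the small one too early, was at 23.3, 16.95 and 21.7 CPM at 0 h and at 60.4, 50.2 and 43.2 CPM at 48 h, a log2 fold change of 1.31 (SE 0.15, adjusted p = 9.5e-05). Rrs1 (0.96, adjusted p = 5.8e-04) and Brix1 (0.77, adjusted p = 0.0010) came next, and Zfp622, a late cytoplasmic factor, fell (-0.66, adjusted p = 0.0031). For both Rcl1 and Zfp622 the time points did not overlap.

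Myc, the transcription factor best known to drive this pathway, varied widely within the time points. It was at 35.6, 6.35 and 19.5 CPM at 0 h and at 29.1, 48.5 and 25.7 CPM at 48 h. The highest library at 0 h exceeded 2 of the 3 at 48 h, and the log2 fold change of 0.75 (SE 0.46, adjusted p = 0.22) did not pass the test.

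The labelled cell type and the division state were checked against marker lists. For comparison, 21.4% of all genes tested were called higher and 19.3% lower. All 10 hepatocyte markers were expressed, with a summed level of 104080 to 122220 CPM at 0 h and 71176 to 87287 CPM at 48 h, and 1 of them was called higher (Fgb) and 3 lower (Alb, Apoa1 and Ttr). All 8 markers of dividing cells rose, and their summed level was 17.3 to 21.1 CPM at 0 h and 594 to 750.0 CPM at 48 h. All 10 endothelial markers fell (348 to 500 CPM at 0 h and 246 to 270 CPM at 48 h). Of 10 Kupffer cell markers, 2 rose (Marco and Cd5l) and 8 did not pass the test. The Kupffer cell list summed to 78.3 to 118 CPM at 0 h and 112 to 137 CPM at 48 h. Of 9 stellate cell markers tested, Col1a1 rose and Reln and Colec11 fell (77.4 to 125 CPM at 0 h and 67.7 to 81.1 CPM at 48 h for the list), and of 3 cholangiocyte markers tested Spp1 rose (35.1 to 63.1 and 46.9 to 58.6 CPM). The defining cholangiocyte genes Krt19, Krt7 and Epcam were at or near 0, with means of at most 0.0543 CPM. The 1 lymphocyte marker tested, Ptprc, did not pass the test (2.79 to 3.83 and 2.64 to 3.89 CPM for the list), and of the 8 neutrophil markers 0 had enough counts to be tested (0.0903 to 0.408 and 0.594 to 1.06 CPM). The part of these differences in the members' changes was not tested.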

How the data were processed

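RNA-Seq gene counts of 6 hepatocyte libraries (3 at 0 h, 3 at 48 h after PHx) were used as the authors deposited them. According to the submitters' processing notes, FastQC 0.11.5, Trim Galore 0.6.4, STAR 2.6, HTSeq 0.12.4 and DESeq2 were used with the mm10 genome; the strand setting and the counting mode are not given in the sources used here. Rows that name no gene were left out: 24.3% to 32.7% of the reads in a file were assigned to no feature and 4.27% to 5.29% were ambiguous. Counts that summed to 31419443 to 36346220 per library were tested with edgeR 4.0.16 (R 4.3.3; quasi-likelihood test, TMM, at least 10 counts in at least 3 libraries, time as the only term) with Benjamini-Hochberg adjustment over all genes tested and a threshold of 0.05. The fit was first tested on simulated data. Gene positions, exon bases and overlaps came from GENCODE M21 (GRCm38) and promoter windows from RefSeq (GRCm38.p6).

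Groups were taken from the labels, and p-values weigh the difference between the time points against the spread between these libraries. Values in every library are given for the largest and smallest change of each role, for members that did not pass the test and for subunits of the complexes compared. Of other pathway genes, the 3 largest called changes in each direction are named where the mean was at least 1 CPM. Ruvbl1 was added beside the other R2TP genes, and Myc as the known regulator. Alternatives were DESeq2 1.42.0, limma-voom (limma 3.58.1), RLE, upper-quartile, library-size and protein-coding TMM scaling, other filters, a log2 fold change of at least 1, a replicate block and leaving out each library. The members, lists and tests were chosen with earlier results of these data known.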

Additional observations from a re-analysis of the deposited data

How the results depend on the processing

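The number of members called higher was 28 with TMM and edgeR, 27 with DESeq2, 28 with limma-voom, 28 with RLE, 22 with upper-quartile scaling, 23 with TMM on protein-coding genes, 39 with library size alone, 24 without a filter beyond 1 count, 28 with at least 1 CPM in 3 libraries, and 21 to 25 with 1 library left out. When a log2 fold change of at least 1 was also required, 5 members were higher, and of all genes 1651 were higher and 1353 lower, compared with 3638 and 3288 without it. With library size alone, 2110 of all genes were lower. The median log2 fold change of the members was 0.37 with upper-quartile scaling, 0.65 with library size alone and 0.40 with TMM on protein-coding genes, compared with 0.45 in the main analysis. The number of members called lower was 0 to 1 with 1 library left out, the 1 being Nop10 without 0 h replicate 2. A change of sign was found in 3 members, none of them called with TMM and all 6 libraries: Polr1b (-0.066 with upper-quartile scaling, -0.034 with TMM on protein-coding genes, and -0.034 to 0.049 with 1 library left out), Nop10 (0.024 with library size alone) and Ddx10 (0.12 with library size alone). The other 39 members had a positive log2 fold change in every setting. The cause of these differences was not tested.

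With the replicate number as a replicate block, 24 members were called higher; Gnl3, Utp20, Polr1e and Rrp9 were lost. The libraries at 0 h and at 48 h came from different mice. After each group mean was taken off, a 0 h library and the 48 h library of the same number correlated at 0.033, -0.067 and -0.14. These correlations cannot decide whether libraries of the same number shared a batch. Both the 3 libraries a group and the depth limit the precision: each member had at least 54 counts in every library, and counting error is largest for the members with few counts, such as Gar1. A gene without a call is not shown to be unchanged.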

Other observations

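Of the 42 members, 8 hold annotated snoRNA genes within their bounds, 29 in all: Taf1d (8 snoRNA genes), Nop56 (5), Nop58 (4), Ncl (3), Wdr43 (3), Gnl3 (3), Tsr1 (2) and Dkc1 (1). Of these 8 hosts, all but Taf1d rose in the edgeR fit with TMM, where 28 of all 42 members and 21.4% of all genes tested rose. The calls of Dkc1, Wdr43 and Gnl3 were lost in some alternatives. Whether hosts differ from the other members was not tested.

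The spread between libraries was small for most members, with a median coefficient of variation of 9.78% at 0 h and 7.37% at 48 h. No library was highest or lowest throughout: of the 42 members, 18 were highest in 0 h replicate 1, 16 in 0 h replicate 2 and 8 in 0 h replicate 3 among the libraries at 0 h, and 19, 10 and 13 were highest in 48 h replicates 1, 2 and 3.

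In the promoter windows, the letters ACTACA followed 2 bases later by TCCC were present in 4 of the 37 members with a window (10.8%: Nop10, Nop14, Nop16 and Polr1b) and in 563 of 27025 genes (2.08%). This motif was chosen after the printed sequence of Nop10 had been seen, so that the match of Nop10 was fixed in advance. The shares of members and of all genes can therefore not be weighed against each other, and no test was run on the motif. Of the 4 genes, Nop14 and Nop16 were called higher and Nop10 and Polr1b were not called.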
